A study of Homo sapiens with 19 samples.

Results

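The basal and squamous keratins described here are 8 genes, KRT4, KRT5, KRT6A, KRT13, KRT14, KRT15, KRT16 and KRT17, followed across 19 single-cell libraries of human liver organoids. They were matched by Ensembl identifier, and all 8 are among the 32703 genes listed in every deposited matrix. They were chosen because earlier results on these libraries showed them high in the older organoids, so their levels on day 34 against day 21 are given as a description, without a test. The organoids came from 1 wild-type human pluripotent stem cell line, W01 of WiCell, and every group shares that line and the differentiation into organoids. Organoids in ultra-low attachment (ULA) plates were taken untreated on day 21 (n = 3 libraries) and on day 34 (n = 2). Organoids on an orbital shaker (OS) were taken on day 25 in 7 groups of 2 libraries: untreated, TGFB1 (transforming growth factor beta 1, 10 ng/ml), PA (500 µM), OA (500 µM), and a control for each of the 3 treatments. Per the labels, shaker culture lasted 20 days before treatment, and TGFB1 and PA were then given for 5 days. PA and OA are not spelled out in the labels, and OA is named only in sample titles and treatment fields, so its length of treatment is not given there. Day 34 ULA and OS organoids had 1 more wash and 10 more minutes of trypsin than day 21 organoids, so day and dissociation cannot be told apart in the ULA comparison. The labels do not say whether libraries of a group came from separate cultures, so p-values measure only the spread between these libraries, which may be technical.

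Keratins are the intermediate filament proteins of epithelial cells, and a filament needs a type II keratin paired with a type I keratin. In stratified epithelia such as skin and esophagus, KRT5 pairs with KRT14 in the basal layer, where KRT15 is found as well. KRT6A, KRT16 and KRT17 are induced in wounds and in proliferating or stressed squamous cells, and KRT4 pairs with KRT13 in the upper layers of internal, non-cornified squamous epithelia. Hepatocytes make the simple keratins KRT8 and KRT18, and bile duct cells add KRT7 and KRT19. The 3 type II members lie on chromosome 12 of GRCh38, all on the minus strand, with KRT6A at 52487176 to 52493257, KRT5 at 52514575 to 52520530 and KRT4 at 52806549 to 52814116. The 5 type I members lie on the minus strand of chromosome 17, in the order KRT13 (41500981 to 41505705), KRT15 (41513745 to 41522529), KRT14 (41582279 to 41586895), KRT16 (41609778 to 41615899) and KRT17 (41619442 to 41624842).

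Cells were kept if they had 500 genes or more and no more than 20% of counts from mitochondria, and libraries then held 3089 to 12427 cells and 6880807 to 91184130 unique molecular identifiers (UMIs, 1 per captured transcript). Median depth ran from 1310 UMIs per cell in TGFB1 control replicate 1 to 14304.5 in ULA day 34 replicate 1, and was 5959 in ULA day 34 replicate 2. Any pair of libraries shared 1 to 32 cell barcodes, at most 0.581% of the smaller one. All 8 liver markers checked (such as SERPINA1 and AFP) had UMIs in every library, but their summed level was 1962 to 2205 CPM (UMIs of a gene divided by all UMIs and scaled to 1e+06) on day 21 and 81.5 and 749 CPM in day 34 replicates 1 and 2, against 2631 to 22624 CPM in the OS libraries. The 7 mesenchymal markers, chiefly collagens, summed to 1697 to 2160 CPM on day 21 and to 3822 and 1591 CPM in the day 34 replicates. The part of this shift in cell make-up in the keratin levels was not tested, and in summed libraries fewer cells of a type and less RNA per cell cannot be told apart.

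The 8 keratins together were low in younger ULA organoids and abundant in older ones. Their summed level was 22.3, 12.6 and 16.7 CPM in the 3 day 21 libraries and 1849 and 4120 CPM in the 2 day 34 libraries, the latter 0.185% and 0.412% of all UMIs. Every member had both day 34 libraries above all 3 day 21 libraries, 8 of 8, where 34.5% of the 15336 genes with a mean of at least 1 CPM lay the same way. The members were chosen on this contrast, so nothing is read from that count. Their median log2 ratio, on log2(CPM + 1), was 5.64 against 0.13 over the same 15336 genes, and the pseudocount lowers the ratio of rare genes. A UMI marks the 3′ end of a transcript once, so CPM was not divided by transcript length.

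Of the basal keratins, KRT5 stood at 4.45, 1.28 and 3.08 CPM on day 21 and at 239 and 786 CPM on day 34. The means were 2.94 ± 1.59 CPM (SD, n = 3) and 513 ± 387 CPM (SD, n = 2), and the lower day 34 library was 53.7 times the highest day 21 library. The day 34 libraries differed from each other by 3.29-fold. KRT14, the usual type I partner of KRT5, was higher on day 34 too but stayed rare. It had 7 UMIs in all of day 21 and 352 on day 34, that is 2.54 and 1.69 CPM, beside 90297 UMIs of KRT5. KRT15, a second basal type I keratin, stood at 2.49, 1.19 and 1.92 CPM on day 21 and at 11.5 and 73.96 CPM on day 34, a 6.44-fold gap between the day 34 replicates. Both were higher than day 21, but the lower of them lay within the range of the OS libraries, which ran from 4.22 to 20.3 CPM.

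Among the wound keratins, KRT17 was the most abundant member in both ULA groups. It stood at 12.9, 8.80 and 9.64 CPM on day 21 and at 1236 and 2482 CPM on day 34, with means of 10.5 ± 2.2 CPM (SD, n = 3) and 1859 ± 881 CPM (SD, n = 2). KRT6A, a type II keratin, was at 0.725, 0.617 and 0.645 CPM on day 21 and at 307 and 141 CPM on day 34. For KRT6A, as for the rare KRT14, day 34 replicate 1 was the higher one, here by 2.17-fold. KRT16, its usual type I partner, was at 0.589, 0.132 and 0.341 CPM on day 21 and at 20.8 and 28.9 CPM on day 34. KRT16 therefore stayed far below KRT6A in UMIs, with 4255 against 36794 over both day 34 libraries.

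Of the mucosal keratins, KRT4 was rare and KRT13 uneven. KRT4 was at 0.804, 0.250 and 0.754 CPM on day 21 and at 8.85 and 13.6 CPM on day 34. KRT13 was at 0.204, 0.308 and 0.268 CPM on day 21 and at 23.7 and 592 CPM on day 34. The 25.0-fold gap between the day 34 replicates made KRT13 the least repeatable member, and its mean of 308 ± 402 CPM (SD, n = 2) describes neither library. The log2 ratio of day 34 over day 21 for KRT13 was 7.94 with both libraries and 4.29 without day 34 replicate 2. Without that library the members' median log2 ratio fell from 5.64 to 4.15.

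**Figure D1:**
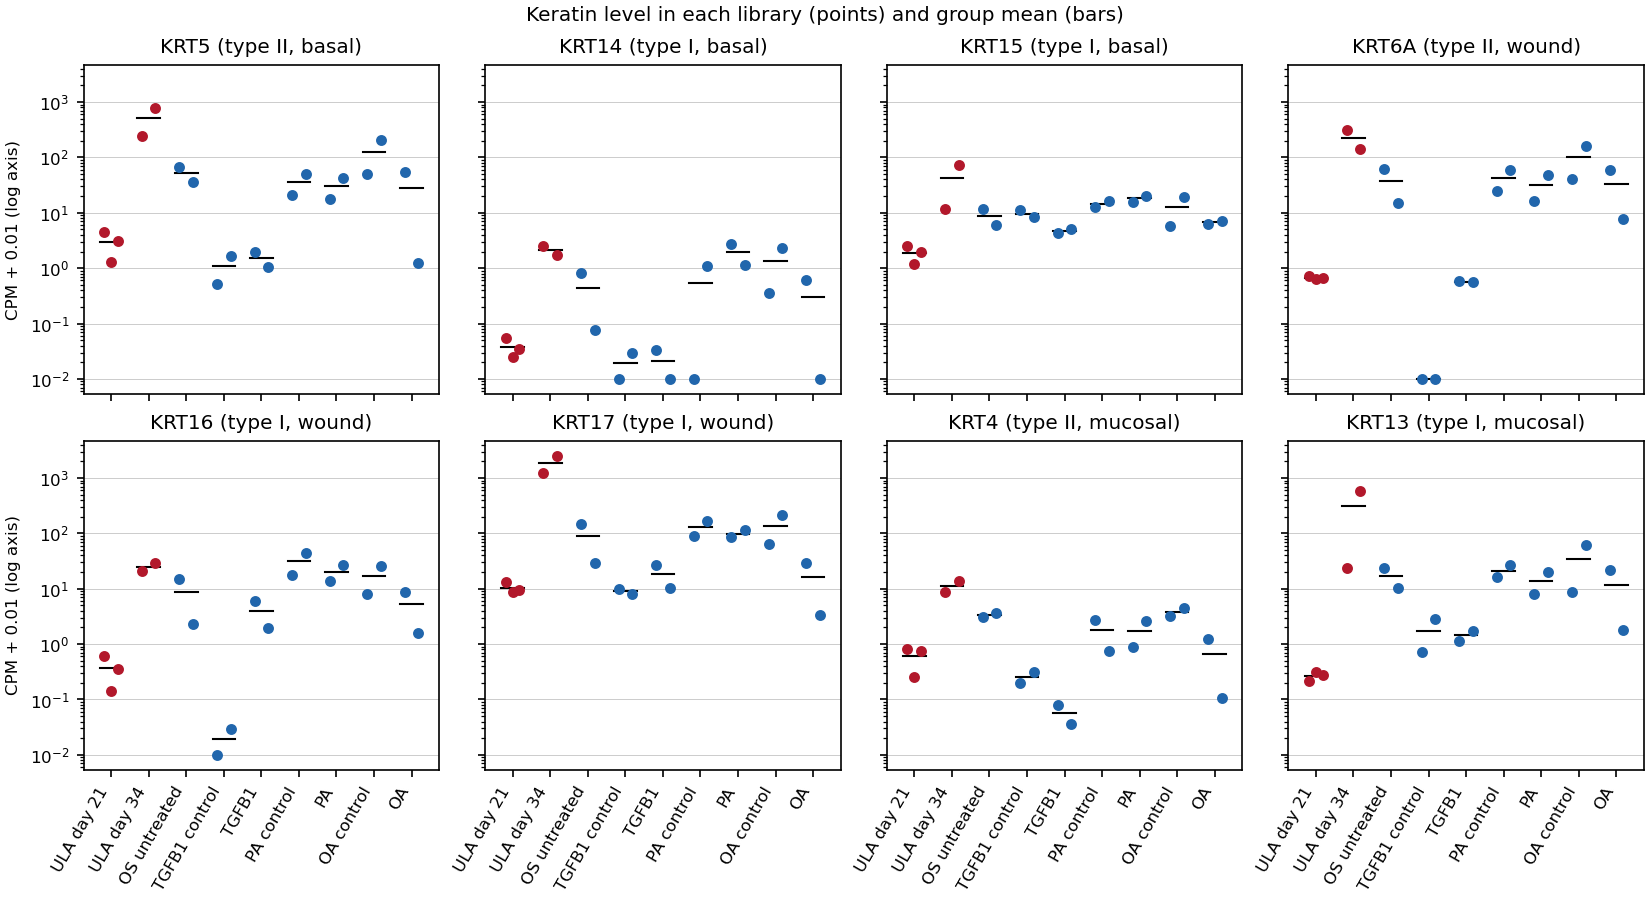
Level of each keratin in each library (points, CPM plus 0.01 on a log axis, so that a library with no UMI sits at 0.01) and the group mean (bars). Red marks ULA and blue OS libraries. KRT17 reaches 1236 and 2482 CPM on ULA day 34, KRT14 stays under 3 CPM in all libraries, and both TGFB1 control libraries have no KRT6A.

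KRT5 and KRT4 are the members found in the RefSeq promoter table (GRCh38.p14), and KRT6A, KRT13, KRT14, KRT15, KRT16 and KRT17 are named only. The 250 bases before each start are shown because both are type II genes of chromosome 12 that were higher on day 34, one 175-fold and one 18.6-fold by their means. They are written 5′ to 3′ on the minus strand, from chr12:52520395-52520644 for KRT5 and chr12:52814117-52814366 for KRT4, with every match to the motifs searched in capitals. The RefSeq start of KRT5 used here lies inside the gene span given above, so its window overlaps the upstream end of that span.
KRT5: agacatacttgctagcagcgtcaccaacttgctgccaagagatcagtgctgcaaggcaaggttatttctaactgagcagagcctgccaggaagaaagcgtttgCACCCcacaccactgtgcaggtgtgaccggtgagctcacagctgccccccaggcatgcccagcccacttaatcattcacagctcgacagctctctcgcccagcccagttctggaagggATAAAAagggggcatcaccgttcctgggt
KRT4: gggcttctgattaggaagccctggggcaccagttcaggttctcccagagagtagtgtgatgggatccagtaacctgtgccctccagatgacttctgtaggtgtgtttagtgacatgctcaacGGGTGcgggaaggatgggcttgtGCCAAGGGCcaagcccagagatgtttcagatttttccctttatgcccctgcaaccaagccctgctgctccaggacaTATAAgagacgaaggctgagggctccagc
KRT5 holds ATAAAA, a variant of the core promoter box, whose first base lies 29 bases before the start. The core form of that box, TATAA, was found in KRT4, also with its first base 29 bases before the start. Of 35116 RefSeq promoters of the same length, 14.8% hold ATAAAA and 18.9% TATAA on either strand. CACCC, the core bound by KLF factors, begins 147 bases before the start in KRT5 and 128 in KRT4, where it lies on the opposite strand, and 54.7% of promoters hold it. The AP-2 motif GCCNNNGGC was found in KRT4 at 105 bases and in 19.8% of all promoters. TGANTCA of AP-1 (6.57% of promoters) and the GC box GGGCGG (42.6%) had no match in either window. These are matches of letters, with no binding measured, and the motifs do not overlap one another.

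Across all 9 groups, ULA day 34 had the highest mean for 7 members, and only for KRT5, KRT17 and KRT4 did its libraries clear those of the next group, the OA control. KRT17 was 1859 CPM there against 138 ± 104 CPM (SD, n = 2), and KRT4 11.2 ± 3.3 against 3.85 ± 0.86 CPM (SD, n = 2 each). KRT16 was the exception, highest in the PA control at 31.5 ± 19.1 CPM (SD, n = 2), with ULA day 34 at 24.9 ± 5.8 CPM, and these libraries overlapped. The TGFB1 control had the lowest mean of the 9 groups for KRT5, KRT14, KRT6A, KRT16 and KRT17, but not for KRT15, KRT4 and KRT13. Its libraries had no UMI of KRT6A, 0.506 and 1.63 CPM of KRT5 and 8.03 and 10.1 CPM of KRT17. In the PA and OA experiments and the untreated OS libraries KRT5 ran from 17.98 to 203 CPM except in OA replicate 2 at 1.21 CPM. Gene models and software versions differed between the experiments, so levels from different ones are set side by side only.

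The make-up of the keratin UMIs differed between experiments as well. KRT17 gave 57.8% to 69.9% of them on ULA day 21, and 66.8% and 60.2% on day 34. In the TGFB1 control KRT15 gave 49.01% and 39.6%, the most of any library, while in OA KRT17 gave only 16.0% and 14.5%. The type I partners were unevenly represented: KRT14 never exceeded 3 CPM in any library, although KRT5 reached 786 CPM.

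**Figure D2:**
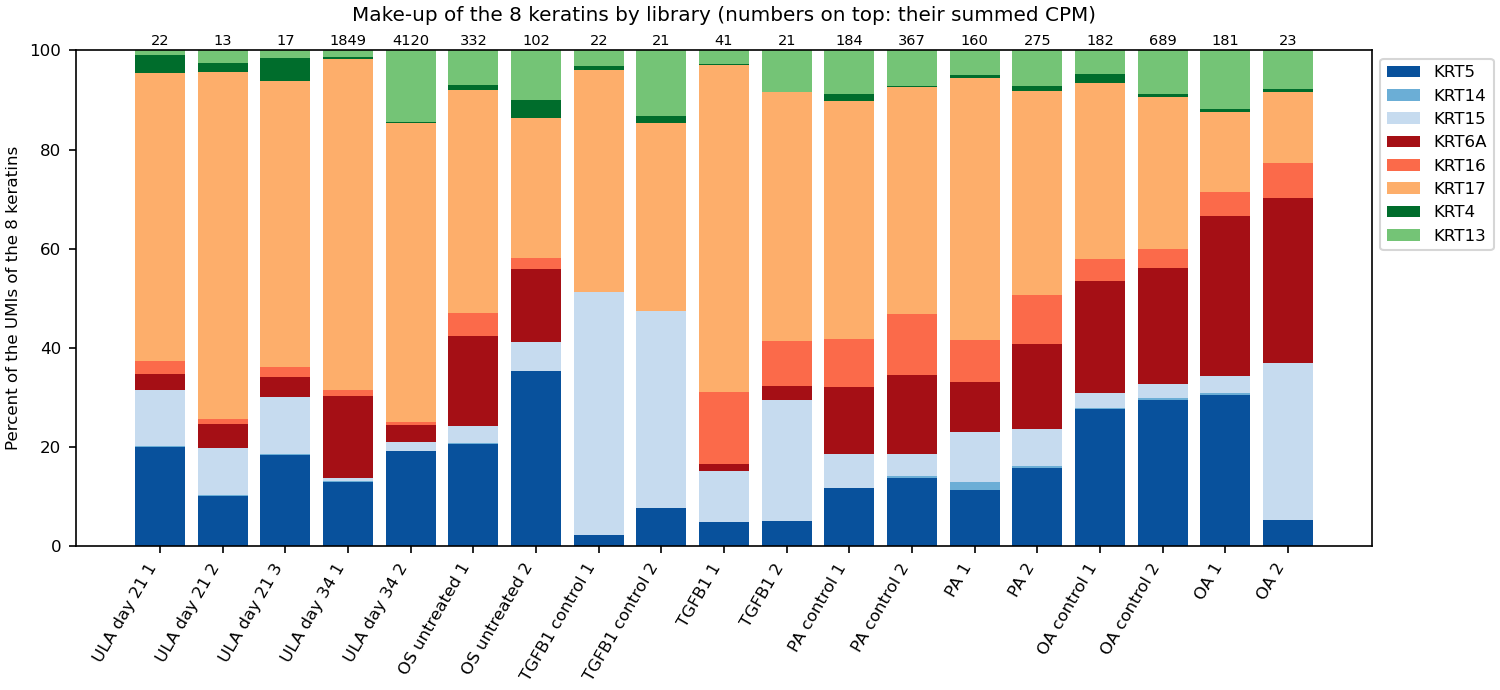
Share of each keratin (percent, stacked bars) among the UMIs of the 8 keratins in each library, with their summed CPM above each bar. KRT17 fills 57.8% to 69.9% of each ULA bar, KRT15 is largest in the TGFB1 control libraries, and KRT14 is barely visible anywhere.

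Near-identical copies make some values uncertain, since reads that fit several copies may be split or dropped by the counting. On day 34, KRT6B and KRT6C had 260 and 1340 UMIs beside 23902 and 12892 of KRT6A in replicates 1 and 2. The 6 listed KRT16 pseudogenes had 67 and 33 UMIs beside 1616 and 2639 of KRT16, and the 8 listed KRT17 pseudogenes 20 and 41 beside 96223 and 226293. In the TGFB1 experiment the balance was the other way, with 1162 and 604 UMIs of KRT6B and KRT6C beside 25 and 22 of KRT6A with TGFB1, and 7 and 41 beside 0 in the control. How many reads of the members were lost to copies is not given by the files.

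In single cells, KRT17 was the keratin seen most widely on day 34. At least 1 UMI of it was found in 58.4% of 4326 cells (95% Wilson interval 57.0 to 59.9) and in 80.1% of 12427 (79.4 to 80.8), against 8.39%, 5.17% and 6.87% on day 21. KRT5 was found in 34.5% and 61.4% of day 34 cells and in 1.69%, 0.656% and 1.38% of day 21 cells. KRT13 was found in 8.09% and 42.0%, KRT15 in 11.6% and 24.5% and KRT6A in 14.6% and 10.3%, so the order of these 3 differed between the replicates. KRT16 was found in 6.01% and 6.74% and KRT4 in 3.17% and 2.93%. KRT14 was found in 1.23% and 0.797%. At least 3 of the 8 keratins were found in 20.5% and 46.2% of day 34 cells and in at most 0.390% of the cells of a day 21 library. These intervals cover counting error only.

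The background was high at 1 UMI. Day 34 cells with at least 5 of the 7 mesenchymal markers and no EPCAM were taken as background, assuming they lack squamous keratins. These were 1703 and 1139 cells, with median depths of 15526 and 6146 UMIs. KRT17 had a UMI in 25.3% and 46.8% of them, KRT5 in 8.40% and 23.6% and KRT13 in 0.705% and 16.3%. Whether such cells make some KRT17 of their own was not tested. At 5 or more UMIs the same cells gave 3.52% and 8.25% for KRT17, against 65.1% and 65.0% of the other cells (median 13381 and 5930.5 UMIs). KRT5 gave 1.47% and 3.78% against 32.1% and 38.1%, KRT6A 0.0587% and 0.615% against 11.2% and 4.23%, and KRT13 0.0587% and 1.49% against 3.01% and 19.7%. Cells with 5 or more UMIs of a keratin are called high for it from here on. With each cell thinned to 2000 UMIs, which left 4291 and 11984 cells on day 34 and 5215 to 5771 on day 21, KRT17 was found in 40.9% and 70.7% of day 34 cells and in 1.98%, 1.09% and 1.73% of day 21 cells. KRT5 was then found in 19.04% and 47.5% against 0.520%, 0.288% and 0.433%, so both orders held at equal depth.

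The UMIs of KRT6A and KRT16 sat in few cells. The top 5% of day 34 cells held 94.8% and 94.0% of all KRT6A UMIs and 97.3% and 91.8% of KRT16 UMIs. For KRT17 they held 49.7% and 27.8%, and for KRT5 56.9% and 33.3%. The highest single cell had 812 UMIs of KRT17 and 683 of KRT6A, both in replicate 1.

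Cells high for 1 keratin were mostly high for KRT17 as well. Of 867 and 4340 KRT5-high cells in day 34 replicates 1 and 2, 93.5% and 96.8% were KRT17-high, against 27.6% and 39.9% of the remaining cells. In reverse, 45.9% of 1767 and 56.6% of 7426 KRT17-high cells were KRT5-high, against 2.19% and 2.74% of the remaining cells. These shares are lower because KRT17-high cells outnumbered KRT5-high cells. Most KRT13-high cells were high for these 2 keratins too: 65.0% of 80 and 87.5% of 2238 were KRT5-high, and 96.3% and 94.2% were KRT17-high. However, 5.998% of KRT5-high cells in replicate 1 were KRT13-high, against 45.1% in replicate 2, the same imbalance as in the KRT13 levels of the libraries.

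KRT6A and KRT16 were often high in the same cells. Of 79 and 121 KRT16-high cells, 76.0% and 63.6% were KRT6A-high, against 5.53% and 3.31% of the remaining cells. Of the 295 and 484 KRT6A-high cells, 20.3% and 15.9% were KRT16-high, against 0.471% and 0.368% of the remaining cells. The shares differ by direction because KRT6A-high cells were more numerous. KRT5 was high in 54.6% of KRT6A-high cells in replicate 1 and in 89.9% in replicate 2. KRT14 was high in 0.692% and 0.0691% of KRT5-high cells, against 0.0289% and 0% of the remaining cells. Only 7 and 3 cells were KRT14-high at all, and 6 and 3 of them were KRT5-high. KRT15-high cells were frequent enough to describe in replicate 2 alone, where 72.3% of 307 were KRT5-high. Over cells, Pearson's r of depth-scaled log counts, averaged over the 2 day 34 libraries, was 0.66 for KRT5 with KRT17, 0.42 for KRT6A with KRT16 and -0.02 for KRT5 with KRT4. These are descriptions over cells that share library and depth.

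**Figure D3:**
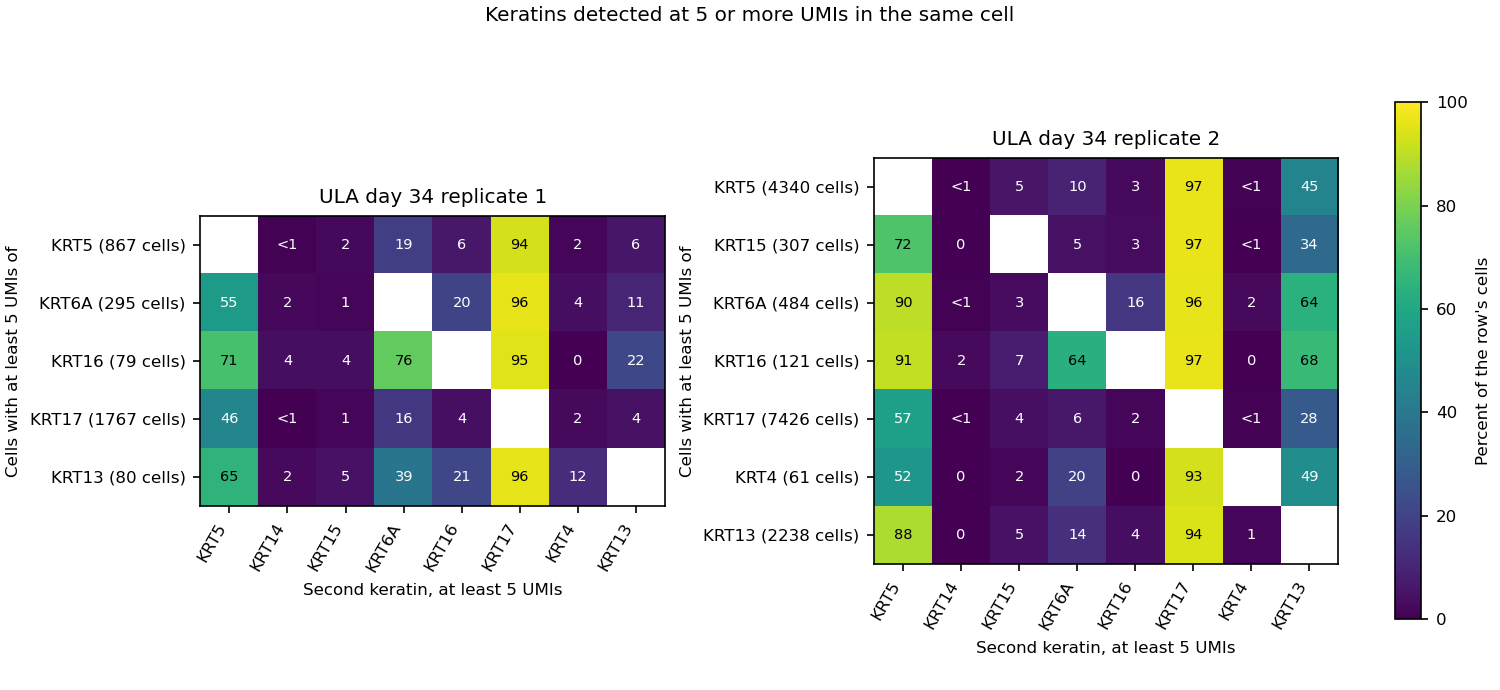
Percent of the cells high (at least 5 UMIs) for the keratin on the vertical axis that are also high for the keratin on the horizontal axis, in each ULA day 34 library. Only keratins high in at least 50 cells have a line. The KRT17 column runs from 93.4% to 96.8%, and KRT13 among KRT5-high cells is 5.998% in replicate 1 and 45.1% in replicate 2.

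Cells grouped by their keratins differed in other epithelial genes that did not define the groups. In cells high for KRT5 with at most 1 UMI of KRT13 (779 and 1714 cells), TP63, the master regulator of basal squamous cells, was at 64.9 and 47.8 CPM, against 2.10 and 1.70 CPM in the 2123 and 3057 cells with at most 1 UMI of every member. COL17A1, a hemidesmosome collagen of basal cells, was at 115 and 64.2 CPM against 2.49 and 2.36 CPM. ITGA6, the integrin chain of hemidesmosomes, was at 274 and 358 against 8.66 and 32.9 CPM. These 3 basal genes were chosen after their values were seen. They were highest where KRT5 was high and KRT13 low, among the groups plotted, with 1 exception. COL17A1 in replicate 1 was at 122 CPM in cells high for KRT5 and KRT6A. DSG3, also listed among the basal adhesion genes, went the other way and was higher where KRT13 was high too. No count over the basal list is given for these groups, so the cells are not named from these genes.

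Cells high for both KRT5 and KRT13 (52 and 1959 cells) were compared with KRT5-high, KRT13-low cells for 5 genes chosen after their values were seen. KRT10, a keratin of differentiating layers, was at 1767 and 1955 CPM there against 368 and 534 CPM. SPRR1B, a cornified envelope protein, was at 397 and 273 against 29.6 and 62.1 CPM. DSG3, a desmosomal cadherin listed among the basal adhesion genes, was at 79.5 and 55.7 against 17.4 and 23.8 CPM. TP63 was lower, at 39.8 and 35.9 CPM. S100A8, a calcium-binding protein of stressed squamous cells, was at 197 and 694 against 48.9 and 44.2 CPM. The direction was the same in both libraries for these 5 genes, but they were chosen on these values, so nothing is read from that. Replicate 1 had only 52 such cells.

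Cells high for both KRT5 and KRT6A (161 and 435 cells) had S100A9, the partner of S100A8, at 4968 and 2106 CPM, against 1291 and 278 CPM in KRT5-high, KRT13-low cells, and KRT6B, the near copy of KRT6A, at 18.7 and 154 CPM. IVL, a cornified envelope precursor, differed between the replicates in these cells, at 6.43 and 63.1 CPM. The comparison group for S100A9 was chosen for low KRT13, not low KRT6A, and the 2 groups can share cells. Of the KRT6A-high cells, 10.51% and 64.05% were KRT13-high, so KRT6A and KRT13 cannot be told apart in the S100A9 difference. In cells high for KRT17 with KRT5 and KRT13 low (639 and 1515 cells), KRT18, a simple keratin, was at 2356 and 2417 CPM, above the 1514 and 1427 CPM of KRT5-high, KRT13-low cells. GABRP, a receptor subunit listed among amnion-like markers, was at 171 and 254 CPM there against 95.8 and 90.2 CPM, and TP63 at 27.8 and 15.1 CPM.

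KRT4-high cells were few. In replicate 2, the library with at least 50 of them (61 cells), 93.4% were KRT17-high, 52.5% KRT5-high and 49.2% KRT13-high. The shares in the other cells were 59.6%, 34.8% and 17.9%. None was KRT16-high, against 0.9785% of the other cells, which at 61 cells tells little. The KRT4-high cells had TP63 at 8.31 CPM on 10 UMIs, IVL at 82.3 CPM, SPRR3, a small proline-rich protein of mucosal squamous layers, at 473 CPM and UPK1B, a urothelial plaque protein, at 170 CPM. Their median depth was 18817 UMIs, against 6838 in KRT17-high cells of that library, and 11 of the 61 were predicted doublets. In the same library predicted doublets were 740 of 4340 KRT5-high cells and 353 of 1959 cells high for both KRT5 and KRT13, against 53 of 3057 cells low for all members. The part of doublets in these groups was not tested.

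A liver and a collagen transcript were compared between the same groups. SERPINA1, a hepatocyte secretory protein, was at 5.53 and 161 CPM in KRT5-high, KRT13-low cells and at 78.2 and 1127 CPM in cells low for all members. COL3A1, a fibroblast collagen, was at 1480 and 663 CPM against 1986 and 1004 CPM, so its UMIs were found in keratin-high cells too, and the part of free RNA in these levels was not tested. KRT10 was at 330 and 440 CPM in cells low for all members, close to its level in KRT5-high, KRT13-low cells.

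**Figure D4:**
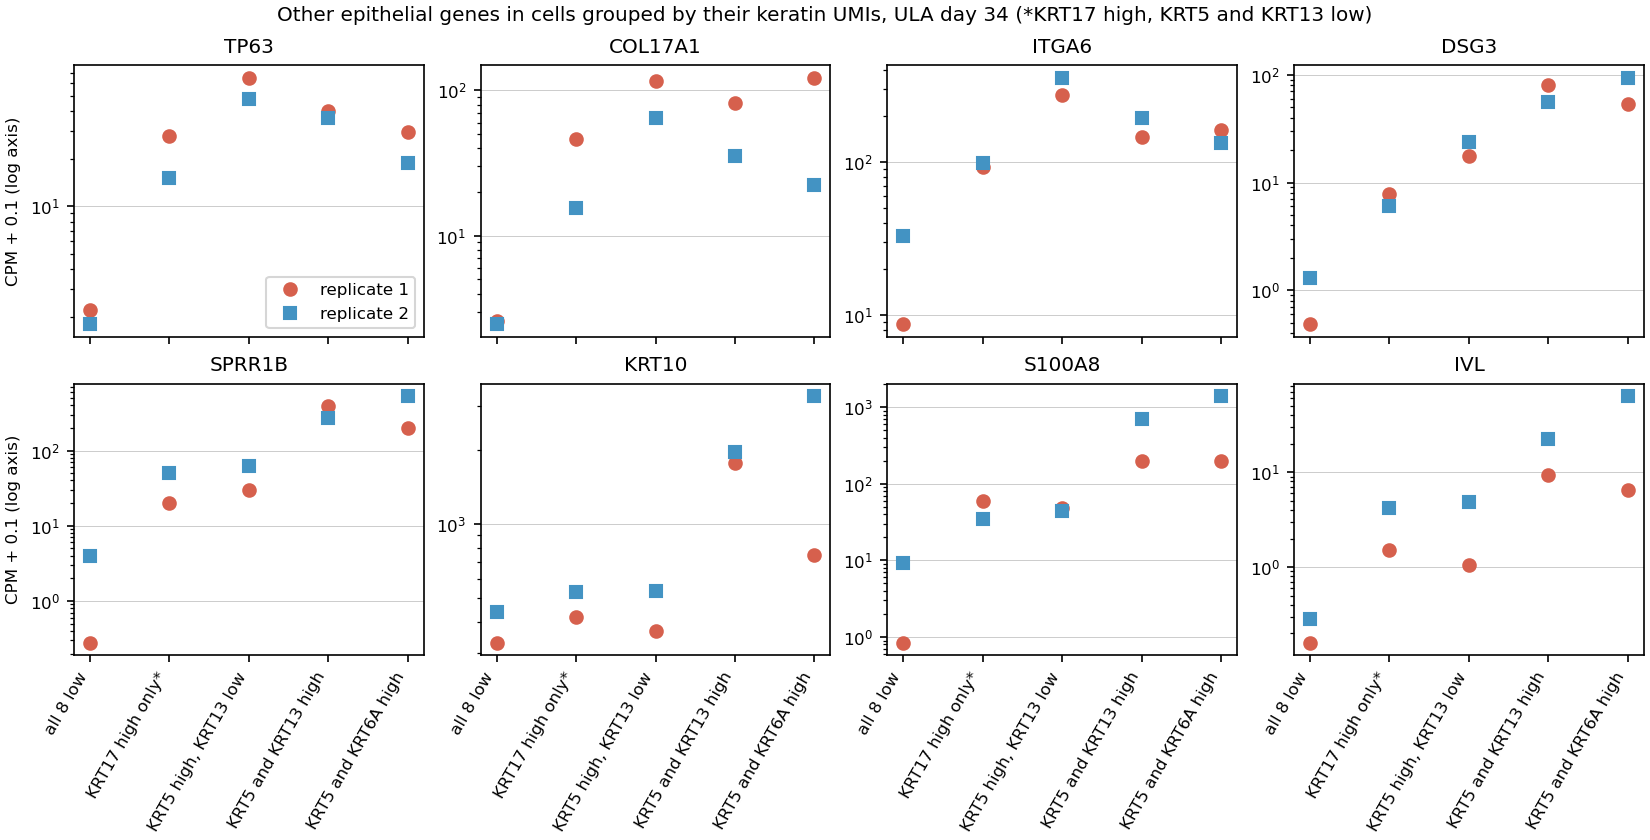
Level of 8 genes (CPM plus 0.1, log axes that differ between panels) in ULA day 34 cells grouped by keratin UMIs. High means at least 5 UMIs of a keratin and low at most 1, and all 8 low means at most 1 UMI over the 8 keratins together. Each point is the summed cells of 1 library. TP63 and ITGA6 are highest in KRT5-high, KRT13-low cells, while SPRR1B, KRT10 and S100A8 are higher where KRT13 or KRT6A is high as well.

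Other epithelial genes on day 34 are given with no test. Of 22 genes of basal adhesion and receptors, 20 had both day 34 libraries above all of day 21, none below, and 2 overlapped. S100A2 went from 1.77 ± 0.32 CPM (SD, n = 3) to 131 ± 140 CPM (SD, n = 2) and TRIM29 from 0.643 ± 0.087 to 20.5 ± 1.0 CPM. Among suprabasal and cornified genes, those with the highest log2 ratios were S100A8 (0.421 ± 0.071 to 107 ± 111 CPM) and SPRR1B (0.177 ± 0.190 to 52.5 ± 44.8 CPM). Genes of these lists could pass the filter of 1 CPM through day 34 alone, so no counts over the genes that passed are read. Among transcription factors ZNF750, a squamous differentiation factor, went from 1.48 ± 0.45 to 18.6 ± 10.1 CPM, whereas ELF3 stood at 90.3 ± 31.4 and 59.0 ± 17.5 CPM. Over all genes with a mean of at least 1 CPM, 34.5% were above and 18.7% below.

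Of the further stratified keratins, KRT6B went from 0.0354 ± 0.0380 to 7.08 ± 6.999 CPM and KRT1, the cornifying partner of KRT10, from 0.00867 ± 0.00770 to 5.89 ± 7.55 CPM. Of the 5 simple keratins, KRT19 was above (948 ± 109 to 2129 ± 153 CPM), KRT20, a gut keratin, was below (9.01 ± 6.04 to 0.0658 ± 0.0931 CPM), and 3 overlapped. Of the wound and TGF-beta targets, AREG, an EGF receptor ligand, was above (22.5 ± 5.9 to 186 ± 13 CPM). MMP1, with the lowest log2 ratio of that list, was below (364 ± 168 to 10.6 ± 13.1 CPM). Next lowest among its genes with at least 5 CPM in a group was STAT3, which was higher on day 34 (log2 ratio 0.99). All 8 liver markers and 5 of 6 gut markers were below, while UPK1B, a urothelial marker, went from 3.16 ± 0.29 to 15.9 ± 2.9 CPM.

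On the shaker the members had not been chosen for the treatment contrasts, which were tested with edgeR's quasi-likelihood test over 19366 genes. TGFB1 raised KRT16, the wound keratin, and no other member passed. KRT16 had 0 and 1 UMI in the control libraries and 263 and 75 UMIs (5.97 and 1.91 CPM) with TGFB1, so the libraries did not overlap. The ratio of summed UMIs was 277, with an exact counting interval of 49.3 to 1.1e+04. The edgeR log2 fold change was 7.92 (SE 1.85, adjusted p 0.00871), and with 1 control UMI that fold depends on the prior count. That is 1 of 8 members called, where 22.2% of all genes were called and 10.9% were called higher. The edgeR call was lost without TGFB1 control replicate 1 (log2 fold change 7.57, adjusted p 0.0581), without control replicate 2 (10.21, 0.0736) and without TGFB1 replicate 1 (6.86, 0.0547), and held without TGFB1 replicate 2 (0.00951). The count of 4295 genes called by edgeR dropped to 2319 when control replicate 1 was left out, and to 1704 or 2232 when TGFB1 replicate 1 or TGFB1 replicate 2 was.

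The other members in that comparison did not pass. KRT6A had 0 UMIs in 68104031 control UMIs and 47 in 83249681 with TGFB1 (0.568 and 0.561 CPM), at least 12.8-fold higher against a floor of 3 counts over the group, with an edgeR adjusted p of 0.144. DESeq2 called it, with an adjusted p of 0.00264. Its near copies KRT6B and KRT6C had 1162 and 604 UMIs in the same TGFB1 libraries, against 25 and 22 of KRT6A, and their part in the KRT6A UMIs was not tested. KRT17 stood at 10.1 and 8.03 CPM in the control and at 27.0 and 10.4 CPM with TGFB1, and the libraries did not overlap, but its log2 fold change of 1.26 (SE 0.87) had an edgeR adjusted p of 0.320. KRT15 stood at 11.002 and 8.38 CPM against 4.22 and 5.10 CPM, likewise without overlap (log2 fold change -0.84, SE 0.41, edgeR adjusted p 0.157). KRT4 had 19 UMIs in the control and 4 with TGFB1 (edgeR adjusted p 0.273). KRT5 and KRT13 overlapped, and KRT14 had 1 UMI in each group.

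KRT16-positive cells with TGFB1 were few. In TGFB1 replicate 1, KRT16 was found in 124 of 6002 cells (2.07%, Wilson interval 1.74 to 2.46) and in replicate 2 in 47 of 6904 (0.681%). After thinning to 2000 UMIs the shares were 0.763% and 0.328%, and none of the 2376 and 7957 thinned control cells had a KRT16 UMI. In the 124 cells of replicate 1, not thinned, KRT17 was found in 33.1%, against 5.92% of KRT16-negative cells. KRT5 was found in 2.42% against 0.732%, and KRT6A in 1.61% against 0.0851%. Both rest on very few cells, since KRT5 was found in 46 cells of that library and KRT6A had 25 UMIs. On ULA day 34 the 260 and 838 KRT16-positive cells had KRT5 in 68.5% and 90.8% and KRT17 in 96.5% and 98.0%, where all cells had KRT5 in 34.5% and 61.4% and KRT17 in 58.4% and 80.1%. All these shares are at 1 UMI, where the background was high on ULA day 34, and they are set against KRT16-negative cells with TGFB1 but all cells on day 34. These experiments differ in depth and in the level of every member, so the shares stand side by side only, with no test of a difference.

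The lists of other epithelial genes are set beside the 10.9% of all genes that edgeR called higher and the 11.3% called lower with TGFB1. These lists were chosen with earlier results of these data known, so their counts are descriptions and no enrichment is read from them. TP63 rose from 0.340 ± 0.033 to 11.5 ± 0.6 CPM (SD, n = 2 each), with log2 fold change 5.20 and SE 0.61 (adjusted p 7.08e-05 by edgeR). Of 22 basal adhesion genes 10 rose and 2 fell, led by S100A2 (6.23 ± 0.68 to 101.3 ± 6.3 CPM, edgeR adjusted p 2.43e-06) and with BCAM, a laminin receptor, falling from 195 ± 48 to 36.2 ± 5.5 CPM (edgeR adjusted p 7.04e-05). Of 10 further stratified keratins tested, KRT6B (0.613 ± 0.241 to 20.8 ± 7.8 CPM, edgeR adjusted p 3.63e-05) and KRT79 rose. KRT7, a duct keratin, rose from 39.7 ± 23.9 to 602 ± 93 CPM (edgeR adjusted p 3.99e-05). Of 19 transcription factors 5 rose and 3 fell. Of 31 suprabasal genes 4 rose and 2 fell, near or under the share over all genes. Of the 12 wound and TGF-beta targets 7 rose and 1 fell, with TNC from 26.4 ± 0.6 to 221 ± 6 CPM (edgeR adjusted p 3.6e-05). Over the 8 members the median log2 fold change was 0.18 and over all genes -0.05. Mesenchymal markers summed to 618 and 599 CPM in the control and to 1479 and 1837 CPM with TGFB1. Gut markers summed to 624 and 575 against 154 and 167 CPM, immune markers to 228 and 199 against 44.2 and 32.7 CPM, and ductal markers, KRT7 among them, to 1465 and 2415 against 3871 and 3061 CPM. The part of these shifts in the results was not tested.

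OA lowered 2 members, KRT17 and KRT4. KRT17 stood at 64.9 and 212 CPM in the OA control and at 29.0 and 3.31 CPM with OA, and edgeR's log2 fold change was -2.70 with SE 0.89 and an adjusted p of 0.0256. KRT4 stood at 3.24 and 4.46 CPM and at 1.22 and 0.0957 CPM, and edgeR's log2 fold change was -2.18 with SE 0.79 and an adjusted p of 0.0388. For both, all control libraries lay above all OA libraries, and for the other 6 members the libraries overlapped. That is 2 of 8 called, both lower, where 43.3% of all genes were called and 21.6% were called lower. With only these groups in the fit neither passed, at log2 fold changes of -2.76 for KRT17 (edgeR adjusted p 0.0555) and -2.23 for KRT4 (edgeR adjusted p 0.0576). The members' median log2 fold change was -1.51 and that of all genes -0.08.

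Both OA calls depended on which libraries were in the fit. OA replicate 2 had low levels of most members, with KRT5 at 1.21 CPM against 55.3 in replicate 1, KRT6A at 7.62 against 58.4 and KRT13 at 1.80 against 21.4. OA control replicate 2 was high, with KRT5 at 203 CPM against 50.3 and KRT6A at 162 against 41.1. Without OA replicate 2 no member was called by edgeR, at log2 fold changes of -1.86 for KRT17 and -1.29 for KRT4. Without OA control replicate 2 none was, at -1.74 and -2.03. The count of 8378 genes called by edgeR dropped to 5171 when OA control replicate 2 was left out, and to 5335 when OA replicate 1 was. Without OA replicate 1, 6 were called, all lower: KRT5, KRT14, KRT6A, KRT17, KRT4 and KRT13. Without OA control replicate 1, KRT17 and KRT15 were called and KRT4 was not (edgeR adjusted p 0.0685). With all 4 libraries KRT5 changed by log2 -1.77 with SE 1.07 and did not pass (adjusted p 0.204 by edgeR).

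KRT15, a basal type I keratin, was found in more cells than KRT5 in both OA libraries before cells were thinned to an equal depth. In OA replicate 2 it was found in 281 of 3223 cells (8.72%) and KRT5 in 0.652%, and in replicate 1 in 9.03% and KRT5 in 4.73%. In OA replicate 1, 7.17% of 279 KRT15-positive cells had KRT5, and in the OA controls 11.8% of 246 and 39.0% of 264, where KRT5 was found in 5.04% and 10.4% of all cells. On ULA day 34 KRT5 was found in 71.7% and 89.2% of KRT15-positive cells, against 34.5% and 61.4% of all cells, and on day 21 in 3.54%, 4.17% and 0.676%, against 1.69%, 0.656% and 1.38% of all cells. KRT15-positive cells of the OA libraries had on average 1.24 and 1.34 UMIs of it and median depths of 34267 and 36210 UMIs, against 9689 and 7555 in all cells. After thinning to 2000 UMIs, KRT15 was found in 0.848% and 1.5% of OA cells and in 0.746% and 1.85% of OA control cells, which overlap. KRT5 was then found in 3.36% and 0.403% of OA cells, so which of the pair was seen in more cells differed between the OA libraries.

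Marker levels moved strongly with OA. The 7 mesenchymal markers all fell, from sums of 2401 and 3960 CPM in the control to 127 and 98.9 CPM, and 6 of 8 liver and 5 of 6 gut markers rose. The part of this shift in the keratin result was not tested. Over all genes edgeR called 21.7% higher and 21.6% lower with OA, and the list counts beside these shares are again descriptions only. Of 22 basal adhesion genes 11 rose and 3 fell, among them DST, a hemidesmosome linker (143 ± 9 to 790 ± 84 CPM, SD, n = 2 each, edgeR adjusted p 1.33e-06) and NGFR, a basal cell receptor that fell (edgeR adjusted p 0.00084). KRT20 rose from 14.9 ± 5.4 to 1997 ± 202 CPM (edgeR adjusted p 7.85e-05) and KRT23 from 17.8 ± 0.3 to 55.8 ± 0.1 CPM (edgeR adjusted p 0.00157). Of 31 suprabasal genes 3 rose and 3 fell, under the share over all genes in either direction, among them MAL, a raft protein of mucosal squamous cells, which fell from 4.74 ± 1.38 to 0.884 ± 0.763 CPM (edgeR adjusted p 0.0161). Transcription factors rose in 8 of 19 cases and fell in 2, and TFAP2A fell (edgeR adjusted p 0.000237). Of the 12 wound and TGF-beta targets 7 rose, such as IL1A, and TNC fell.

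With PA no member passed the test. KRT5 stood at 21.4 and 50.4 CPM in the PA control and at 17.98 and 43.3 CPM with PA, KRT17 at 88.1 and 168 against 84.3 and 113 CPM, and KRT6A at 24.7 and 58.6 against 16.1 and 47.4 CPM. These libraries overlapped for 7 members. For KRT14 they did not, at 0 and 1.08 CPM in the control and 2.73 and 1.15 CPM with PA. No member was called by edgeR (adjusted p 1 for each), none had an unadjusted p under 0.05 and DESeq2 called none. Over all genes edgeR called 9, or 0.0465%, and DESeq2 52. Standard errors of the members' log2 fold changes were 0.40 to 1.19, and changes of that size or larger could be missed here.

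The OA control was also set against untreated OS organoids, whose files list the same 36601 genes. No member was called by edgeR, none had an unadjusted p under 0.05, and DESeq2 called none. Over all genes edgeR called 111, or 0.573% (0.0826% higher and 0.491% lower), and DESeq2 712. All 8 members had a positive log2 fold change, with a median of 1.12. The largest of the abundant ones were KRT6A at 1.56 (SE 0.88) and KRT5 at 1.40 (SE 1.06, edgeR adjusted p 0.575). Without OA control replicate 2, KRT14, KRT15, KRT17 and KRT13 turned negative.

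**Figure D5:**
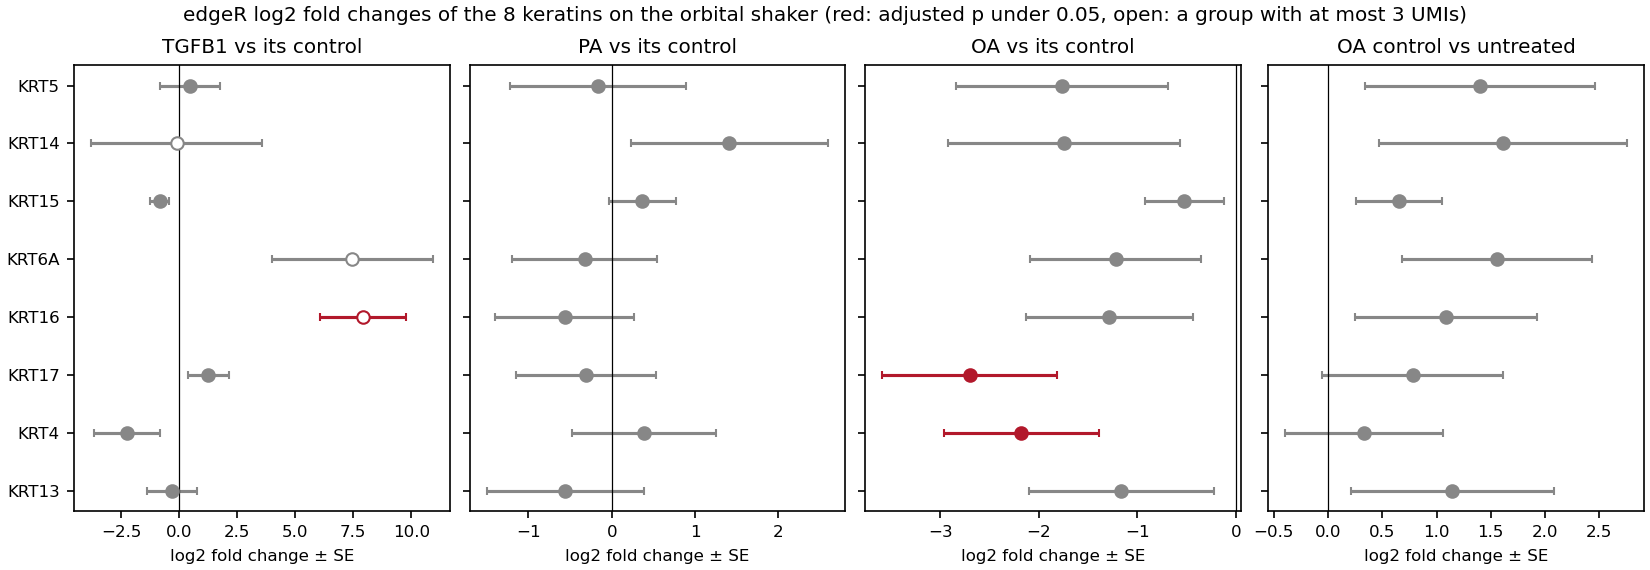
edgeR log2 fold change and its standard error for each keratin in the 4 OS comparisons, with axes that differ between panels. Red points have an adjusted p under 0.05, and open points rest on a group with at most 3 UMIs. KRT16 with TGFB1 and KRT17 and KRT4 with OA are red.

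KRT5-high cells were also found on the shaker. Cells high for any member were 5.37% and 1.36% of untreated libraries, 1.31% and 3.41% of the PA control, 1.49% and 4.18% with PA, 3.54% and 8.05% of the OA control and 3.72% and 0.962% with OA. They were 0.0312% and 0.353% of the TGFB1 control and 0.883% and 0.333% with TGFB1, against 42.4% and 61.4% on ULA day 34. The cut of 5 UMIs is not scaled for depth, and median depth was 1310 and 5635 UMIs in the TGFB1 control libraries. In every OS group the library with the lower median depth had the lower share, while on ULA day 34 it had the higher one. The part of depth in these shares was not tested. In the 6 OS libraries with at least 50 KRT5-high cells, 63.4% to 96.6% of these were KRT17-high and 38.5% to 61.0% were KRT6A-high. On ULA day 34 the KRT6A share was 18.6% and 10.0%. KRT13 was high in 19.02% to 42.1% of them.

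For these cells 4 genes are given, chosen after their values were seen. Summed over the KRT5-high cells of each of the 6 libraries, TP63 was at 4.80 to 15.1 CPM, against 62.2 and 42.5 CPM in ULA day 34 KRT5-high cells. COL17A1 was at 13.9 to 35.3 CPM, against 110 and 49.9 CPM. SPRR1B was higher in the OS libraries, at 263 to 703 CPM against 62.3 and 159 CPM. KRT14, the basal keratin, was higher as well, at 11.2 to 45.3 CPM against 8.24 and 2.93 CPM. The choice of genes leaves nothing to read from their separation, the libraries differ in gene models, software and depth, and TP63 rested on 6 to 53 UMIs and KRT14 on 14 to 100 UMIs per OS library.

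Genes with a like pattern were named by correlation, as a description only. Over the 19 libraries, which share experiments and gene models in groups, log2(CPM + 1) of SPRR1B had the highest Pearson's r with the members' mean among 11609 genes, at 0.96. IGFL2-AS1 followed at 0.93, TRIM29 at 0.92, IGFL2 at 0.91 and DSG3 at 0.90. IGFL2 and IGFL2-AS1 are a sense and antisense pair by name, so their correlations may not be independent. Over day 34 cells, among 14069 genes, those most like KRT5 were KRT19 (mean r 0.62), MIR205HG (0.62), DSP (0.61), SFN (0.61) and S100A11 (0.60). Those most like KRT17 were KRT19 (0.77), DSP (0.75), PERP (0.73), S100A10 (0.71) and ANXA1 (0.69). DSP and PERP belong to desmosomes.

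S100A9 (mean r 0.54) was most like KRT6A, and MIR205HG (0.36) and ITGA6 (0.35) were most like KRT15, MIR205HG being on the list of KRT5 too. S100A14 (mean r 0.42), SFN (0.39), SPRR2F (0.39), SPRR1B (0.39) and AQP3 (0.39) were most like KRT13 across day 34 cells. SERPINB2 (0.42), KRT223P (0.39), SCEL (0.38), CLIC3 (0.37) and AC110619.1 (0.34) were most like KRT4, and none of these is on the lists of KRT5, KRT17 or KRT13. For KRT14 the highest mean r was 0.09, which at its sparse counts is no finding. Over libraries, members followed each other most closely as KRT5 with KRT6A (r 0.94) and least as KRT4 with KRT15 (r 0.62).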

How the data were processed

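Droplet libraries (10x 3′ chemistry, version 3) were used as UMI counts per gene and cell barcode. Per the submitters' processing notes the authors used bcl2fastq, Cell Ranger 3.0.2 and GRCh38 to make the deposited counts, and per the file headers 13 libraries carry software version 3.0.2 and 6 carry cellranger 6.0.2. The files list 58721 (ULA), 33538 (TGFB1 and PA experiments) or 36601 genes (OA experiment and untreated OS). The filter of 500 genes and 20% mitochondrial counts left 120240 cells of 138053 barcodes. The deposited counts were summed per library and scaled to CPM.

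OS groups were compared in 1 edgeR 4.0.16 quasi-likelihood fit over 14 libraries and 7 groups (TMM, filterByExpr), with Benjamini-Hochberg adjustment over 19366 genes and a threshold of 0.05. Day 34 against day 21 was described on log2(CPM + 1) without a test. Doublets were scored with Scrublet in scanpy 1.11.5, the top 2.75% to 10.7% of a library was called predicted doublets, and these were kept except in an alternative. Intervals are 95% Wilson intervals, and a count of 0 allows 3 counts. Scripts were tested on simulated data. Samples were grouped by their labels, and all 19 were used. The members and lists were chosen with earlier results of these data known. All members are named, and of each list up to 4 genes, chosen among the 2 highest and 2 lowest log2 fold changes of genes called or, untested, log2 ratios of genes with at least 5 CPM in a group. The 5 genes most like a member are named by correlation. The genes of the keratin-defined cell groups, the limit of 5 UMIs for a high cell, the limit of 5 mesenchymal markers and the leading genes of KRT6A and KRT15 were chosen after the values were seen. Alternatives were DESeq2 1.42.0, other filters, pseudocounts and cell sets, and left-out libraries.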

Additional observations from a re-analysis of the deposited data

How the results depend on the processing

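Replicate numbers were not used as pairs in the reported fit. Same-numbered libraries' deviations correlated at -0.21 (TGFB1), 0.09 (PA), 0.04 (OA) and -0.44 (OA control against untreated) over 19366 genes. With 2 libraries a group, these values cannot settle whether libraries were paired, in this or the crossed order. With the replicate block, 3144 genes were called with TGFB1, 4 with PA, 7244 with OA and 0 for OA control against untreated, with 1 member with TGFB1 and 1 with OA (KRT17). With crossed numbers, added after seeing the data, 5582 genes and 2 members were called with TGFB1 and 235 genes for OA control against untreated. Members called with TGFB1 (1 as reported) were 2 with DESeq2, 5 without the filter on low counts, 3 with only the 2 groups in the fit and 0 to 1 with a library left out. Members called with OA (2) were 7 without the filter, 0 with only the 2 groups and 0 to 6 with a library left out, and for OA control against untreated (0) they were 5 without the filter. Genes called with a library left out were 1704 to 5554 (TGFB1), 0 to 20 (PA), 5171 to 6570 (OA) and 0 to 164 (OA control against untreated). PA gave 52 genes with DESeq2, 162 without the filter and 16 with only the 2 groups. OA control against untreated gave 712, 523 and 0. The day 34 median log2 ratio was 6.59 with a pseudocount of 0.1 and 4.15 to 5.75 with a library left out.

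These log2 fold changes reversed when a library was left out, given as lowest to highest, and the cause was not tested. With TGFB1 they were KRT5 (-0.0578 to 1.88), negative without TGFB1 control replicate 1 or TGFB1 replicate 1, KRT14 (-2.32 to 2.20, and 0.76 with all deposited barcodes), positive without control replicate 2 or TGFB1 replicate 2, and KRT13 (-0.89 to 1.33), positive without control replicate 2. With PA they were KRT5 (-0.95 to 0.53) and KRT6A (-1.31 to 0.38), positive without PA control replicate 2 or PA replicate 1. KRT16 (-1.14 to 0.19) and KRT17 (-0.64 to 0.17) were positive without PA control replicate 2, and KRT4 (-0.63 to 1.38) was negative without PA control replicate 2 or PA replicate 2. Without OA control replicate 2 these reversed with OA: KRT14 (-8.82 to 0.0709), KRT15 (-1.11 to 0.49) and KRT13 (-3.88 to 0.67). Without it these also reversed against untreated: KRT14 (-0.20 to 4.26), KRT15 (-0.36 to 1.24), KRT17 (-0.19 to 2.30) and KRT13 (-0.69 to 1.93). With 2 libraries a group, and few UMIs of KRT14, KRT4 and KRT6A in the TGFB1 experiment and of KRT16 in its control, small changes were not detectable.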
